A study of Mus musculus with 16 samples.

Results

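Aminoacyl-tRNA synthetases are the enzymes that attach each amino acid to its transfer RNA, and their RNAs are described here across 4 sorted mouse mammary epithelial populations with and without Cpeb2. The genes were taken from a list of 36, of which 20 encode cytosolic and 16 mitochondrial enzymes, and a gene was included where a probe set of the array was annotated to it. That left 32 genes of the 17097 measured, 17 cytosolic and 15 mitochondrial, each read through its probe set with the highest mean over the 16 arrays. Cars, Dars, Tars and Yars2 were not analysed here. All 32 genes are accounted for below, and only Mars2, the mitochondrial methionine enzyme, was dim enough to fall below the lower quartile of probe sets in each array.

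Protein synthesis runs in the cytosol and, separately, on the ribosomes of mitochondria, and most amino acids have one nuclear gene for each place. Gene symbols ending in 2 mark the mitochondrial enzyme, which is made in the cytosol and imported. Gars (glycine) and Kars (lysine) serve both places from one gene, and they are counted with the cytosolic enzymes here. Several cytosolic enzymes sit together in the multisynthetase complex, held by the scaffold proteins Aimp1, Aimp2 and Eef1e1. Mitochondria have no glutamine enzyme of their own: Ears2 charges the glutamine transfer RNA with glutamate, and the amidotransferase of Gatb, Gatc and Qrsl1 converts it. Many cytosolic synthetase genes are known targets of ATF4, the transcription factor of the amino acid and stress response.

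The mice were females aged 10 weeks and 2 days of a mixed C57BL/6J and 129 background, 2 with the genotype Cpeb2 -/- and 2 with Cpeb2 +/+, and Sox2-Cre +/+ is given for all 4. Sox2-Cre acts in the early embryo, so the deletion is not confined to mammary cells, and a wild-type group without the Cre was not analysed here. Each mouse gave 4 sorted populations: myoepithelial cells (Epcam low, CD49f high), the contractile outer layer, and 3 luminal ones (Epcam high, CD49f low). Surface Sca1 and CD49b split the luminal cells: non-clonogenic luminal cells carried Sca1 alone, ductal progenitors carried both, and alveolar progenitors carried CD49b alone. That makes 16 arrays in 8 groups of 2, with mouse 1 of both genotypes from one pair of parents and mouse 2 of both from another. The study's title concerns translational control by Cpeb2, a protein that binds messenger RNAs, in mammary development and tumours.

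The values are log2 expression, array medians lay between 6.35 and 6.40, and replicate arrays correlated across probe sets at 0.975 to 0.991. Cpeb2 was lower in the knockout over the 4 populations (-0.92 ± 0.21, adjusted p = 0.0201). The knockouts still read 6.39 to 7.67 in the Sca1-positive luminal populations, against 4.71 to 5.45 in the other two, and whether the probe set reads the deleted exons is not stated. Myoepithelial and luminal cells carried their markers: 8 of 8 myoepithelial markers were higher and 6 of 6 luminal markers lower in myoepithelial cells. The median level of hormone-sensing luminal markers was 11.02 to 11.57 in non-clonogenic cells and ductal progenitors and 7.18 to 7.36 in alveolar progenitors. That of alveolar progenitor markers was 11.49 in wild-type and 11.32 in knockout alveolar progenitors, and 9.70 and 8.26 in ductal progenitors, where their summed levels overlapped between genotypes. The ductal progenitor array of wild-type mouse 1 stood apart in fibroblast markers, with a summed level of 12.31 on the log2 scale against 10.96 in wild-type mouse 2 and 10.01 to 10.28 in the knockouts. Cell cycle genes were lower in the knockout in all 4 populations, with median differences of -2.63 in non-clonogenic luminal cells, -2.61 in ductal progenitors, -2.02 in alveolar progenitors and -1.72 in myoepithelial cells, and 9, 14, 4 and 3 of 17 called lower. In the last 2 the size rested on wild-type mouse 2: less the mean of each gene over 16 arrays, the median level in alveolar progenitors was -0.09 in wild-type mouse 1, 1.61 in wild-type mouse 2 and -0.69 and -1.04 in the knockouts. In myoepithelial cells it was -0.48, 1.05, -1.37 and -1.27 in the same order.

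The first question was how the synthetase RNAs differ between myoepithelial and luminal cells. Cytosolic and mitochondrial synthetases differed in opposite directions. Of the 17 cytosolic genes 7 were higher and 2 lower in myoepithelial cells, and of the 15 mitochondrial genes 10 were lower and 0 higher (limma, Benjamini-Hochberg adjusted p under 0.05 over all genes, 4 mice in each population). Of all genes, 23.5% were called higher and 24.4% lower in this comparison, 48% in all. The median difference was 0.36 over cytosolic genes, -0.40 over mitochondrial genes and 0.02 over all genes. All 19 called members differed in the same direction in each of the 4 mice. The calls came from these same mice, so part of this agreement is set by the selection. In these sorted bulk samples, fewer cells of a kind and less RNA per cell cannot be told apart.

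**Figure D1:**
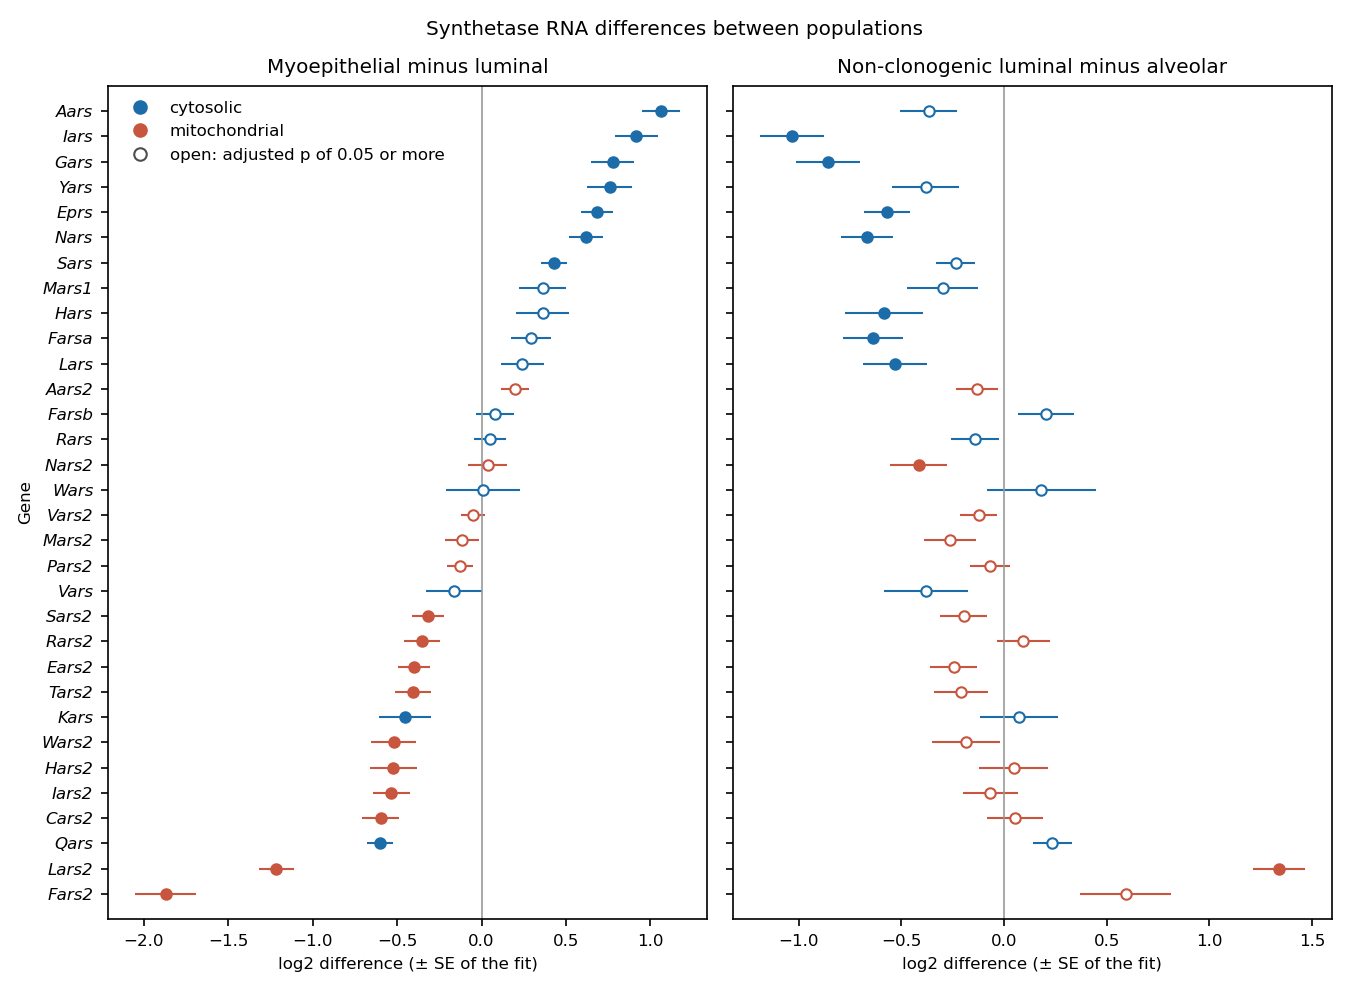
The log2 difference of each synthetase RNA (points, with the standard error of the fit as bars) between myoepithelial and luminal cells (left) and between non-clonogenic luminal cells and alveolar progenitors (right), with genes in the same order in both panels. Filled points have an adjusted p under 0.05: on the left the 10 filled mitochondrial genes all lie below 0 and 7 of 9 filled cytosolic genes above it, and on the right 7 filled cytosolic genes lie below 0.

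Aars, the alanine enzyme, differed most among the higher genes. It read 9.32 and 9.88 in the wild-type and 9.70 and 10.01 in the knockout myoepithelial arrays, and 8.25 to 9.02 (median 8.63) in the 12 luminal arrays. Every myoepithelial array lay above every luminal one, and the difference of 1.06 ± 0.11 is 2.09-fold (adjusted p = 8.29e-06). A second Aars probe set differed by 0.86 ± 0.12.

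Iars, the isoleucine enzyme of the multisynthetase complex, read 11.27 and 10.88 in wild-type and 11.23 and 11.74 in knockout myoepithelial cells. The luminal arrays ran from 9.68 to 11.25 (median 10.23) and overlapped with these, because the alveolar progenitors were high. Iars rose by 0.92 ± 0.13 (adjusted p = 8.03e-05). Gars, the glycine enzyme, read 11.34 and 11.39 in wild-type and 11.61 and 11.88 in knockout myoepithelial cells, against 10.01 to 11.43 (median 10.79) in luminal cells. Its difference was 0.78 ± 0.13 (adjusted p = 0.000283), and the ranges again met at the alveolar progenitors. Yars, which charges tyrosine, read 7.16 and 7.76 in wild-type and 7.68 and 7.78 in knockout myoepithelial cells and 6.52 to 7.31 (median 6.74) in luminal cells. It was higher by 0.76 ± 0.13 (adjusted p = 0.000485).

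Eprs, a single protein that charges both glutamate and proline in the cytosol, read 10.79 and 10.91 in wild-type and 11.12 and 11.22 in knockout myoepithelial cells. The luminal range was 10.01 to 10.84 (median 10.17), so 1 luminal array reached into the myoepithelial range, and the difference was 0.68 ± 0.09 (adjusted p = 6.46e-05). Nars, the asparagine enzyme, read 11.66 and 11.45 in wild-type and 11.92 and 12.17 in knockout myoepithelial cells against 10.71 to 11.66 (median 11.18), a difference of 0.62 ± 0.10. Sars, the serine enzyme, was the last of the 7, at 0.43 ± 0.08 (adjusted p = 0.000689).

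The other direction was held by a pair of cytosolic genes. Qars, the cytosolic glutamine enzyme, read 11.02 and 10.75 in wild-type and 10.82 and 10.57 in knockout myoepithelial cells and 11.21 to 11.60 (median 11.40) in luminal cells. The groups did not overlap, and Qars fell by 0.60 on the log2 scale (SE 0.08, adjusted p = 4.41e-05). Kars differed by -0.45 ± 0.15 (adjusted p = 0.0287), with overlapping ranges. The Kars call was lost when knockout mouse 1, knockout mouse 2 or wild-type mouse 1 was left out (adjusted p = 0.0802, 0.248 and 0.121).

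Of the mitochondrial enzymes, Fars2, which charges phenylalanine, had the largest difference. Its 12 luminal arrays ran from 7.52 to 8.47 (median 7.97). Its myoepithelial values were 5.97 and 7.36 in wild type and 5.56 and 5.51 in the knockout. All 4 lay below the lowest luminal array, though the wild-type mice were 1.39 apart. Fars2 fell by 1.87 (SE 0.18, adjusted p = 3.3e-06), which is 3.66-fold.

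Lars2, the mitochondrial leucine enzyme, fell stepwise over the populations. It read 9.72 and 9.71 in wild-type and 9.61 and 9.75 in knockout non-clonogenic luminal cells, and 9.51 and 9.43 and then 9.36 and 9.39 in ductal progenitors. In alveolar progenitors it read 8.60 and 8.85 in wild type and 7.93 and 8.06 in the knockout, and in myoepithelial cells 8.15 and 8.58, then 7.37 and 7.68. The 8 arrays of the Sca1-positive luminal populations lay above all 8 others. Myoepithelial cells were 1.22 ± 0.10 below luminal cells (adjusted p = 1.03e-06).

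The remaining mitochondrial differences were smaller. Cars2 (cysteine) read 7.94 and 8.31 in wild-type and 7.79 and 7.58 in knockout myoepithelial cells against 8.25 to 8.77 (median 8.46) in luminal cells, a difference of -0.60 ± 0.11. A second, dim Cars2 probe set with a mean of 5.11 differed by 0.21 ± 0.07 in the other direction (adjusted p = 0.0249 over all probe sets), and the mean of both was not called (adjusted p = 0.0506). Iars2 read 7.34 and 7.78, then 7.57 and 7.32, against 7.77 to 8.25 (median 8.04) in luminal cells, a difference of -0.53 ± 0.11 (adjusted p = 0.00137). The groups met at 1 wild-type array. Hars2 (histidine) read 6.05 and 5.95, then 6.10 and 5.56, against 6.02 to 6.92 (median 6.41), a difference of -0.52 ± 0.14. Wars2, Tars2, Ears2, Rars2 and Sars2 differed by -0.52, -0.41, -0.40, -0.35 and -0.32. Single mice decided some of these calls: Hars2, Rars2, Sars2, Tars2 and Wars2 lost theirs without at least 1 of the mice.

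**Figure D2:**
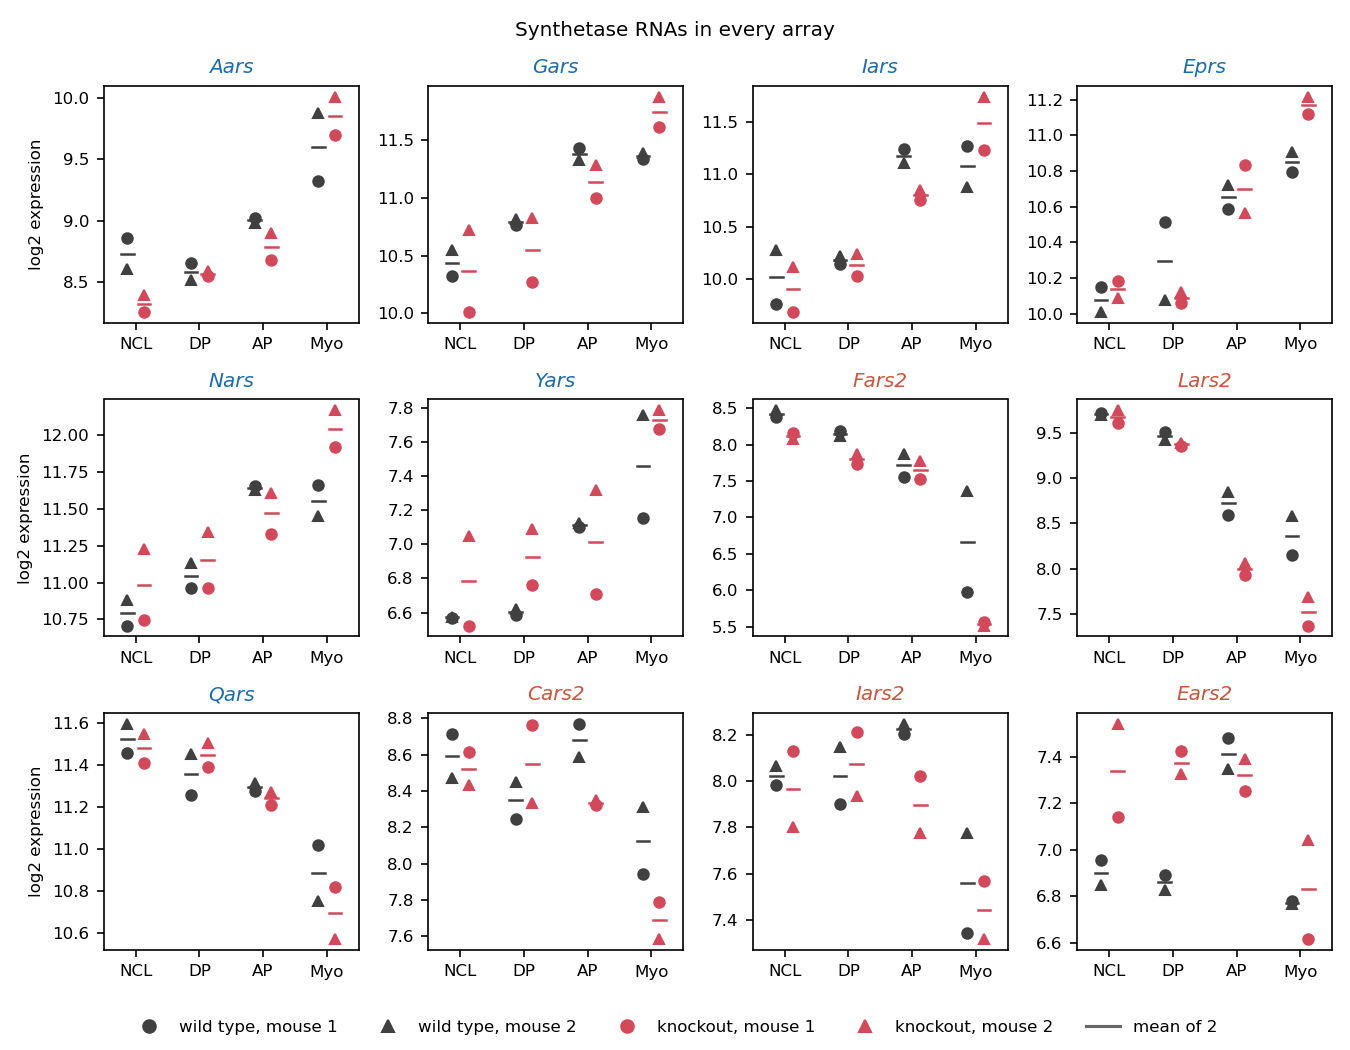
Log2 expression in every array for 12 synthetases (blue titles cytosolic, red titles mitochondrial) in non-clonogenic luminal cells (NCL), ductal progenitors (DP), alveolar progenitors (AP) and myoepithelial cells (Myo), with circles for mouse 1, triangles for mouse 2 and a line at the mean of 2. Aars is highest in all 4 myoepithelial arrays, Iars and Gars are high in alveolar progenitors too, and Fars2, Lars2 and Qars are lowest in myoepithelial cells.

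Which luminal population served as the reference decided part of this pattern. Set against alveolar progenitors alone, 4 cytosolic genes (Aars, Yars, Sars and Eprs) were higher and Qars was lower, while 9 mitochondrial genes were lower and 0 higher, with 18.2% of all genes called higher and 18.3% lower (36.5% in all). The cytosolic median was then 0.12. Set against the Sca1-positive populations, 11 cytosolic genes were higher and 2 lower, with 24% of all genes called higher and 25.1% lower (49.1% in all), and the cytosolic median was 0.49. Iars illustrates this: it was 1.23 ± 0.14 above the Sca1-positive cells and 0.29 ± 0.16 above alveolar progenitors (adjusted p = 0.166). Against either reference 9 mitochondrial genes were lower, and Aars2 was higher than in the Sca1-positive cells (0.23 ± 0.09, adjusted p = 0.0428). These references were chosen after the data were seen.

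Against luminal cells the compartment medians had the same signs in both genotypes. In the 8 wild-type arrays alone 8 members were called, 5 higher and 3 lower, against 27% of all genes. All 19 members called over both genotypes had the same direction there, but these arrays had a part in those calls. The cytosolic less mitochondrial median was 0.61 there and 0.76 in the knockout arrays. Within single mice it was 0.52 and 0.56 in the wild types and 0.996 and 0.57 in the knockouts, so 1 knockout mouse lay apart from the other 3. Against alveolar progenitors alone the wild-type cytosolic median was -0.10 and the knockout one 0.36, and this difference was not tested.

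Comparing both enzymes of one amino acid removes the choice of amino acids from the contrast. In 11 of 12 pairs the myoepithelial-luminal difference was larger for the cytosolic than for the mitochondrial gene. The pairs include phenylalanine with both subunits, Farsa and Farsb, which share Fars2 as partner. Eprs, which charges both glutamate and proline, was left out of the pairs. It differed by 0.68 and Ears2, for glutamate, by -0.40, both called, while Pars2, for proline, was not called. Among the 12 pairs isoleucine and serine had both enzymes called in opposite directions: Iars 0.92 against Iars2 -0.53, and Sars 0.43 against Sars2 -0.32. Valine was the exception, with Vars at -0.16 ± 0.17 and Vars2 at -0.05 ± 0.07, neither called. The members are related genes read in the same arrays, so this is a count and carries no test.

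**Figure D3:**
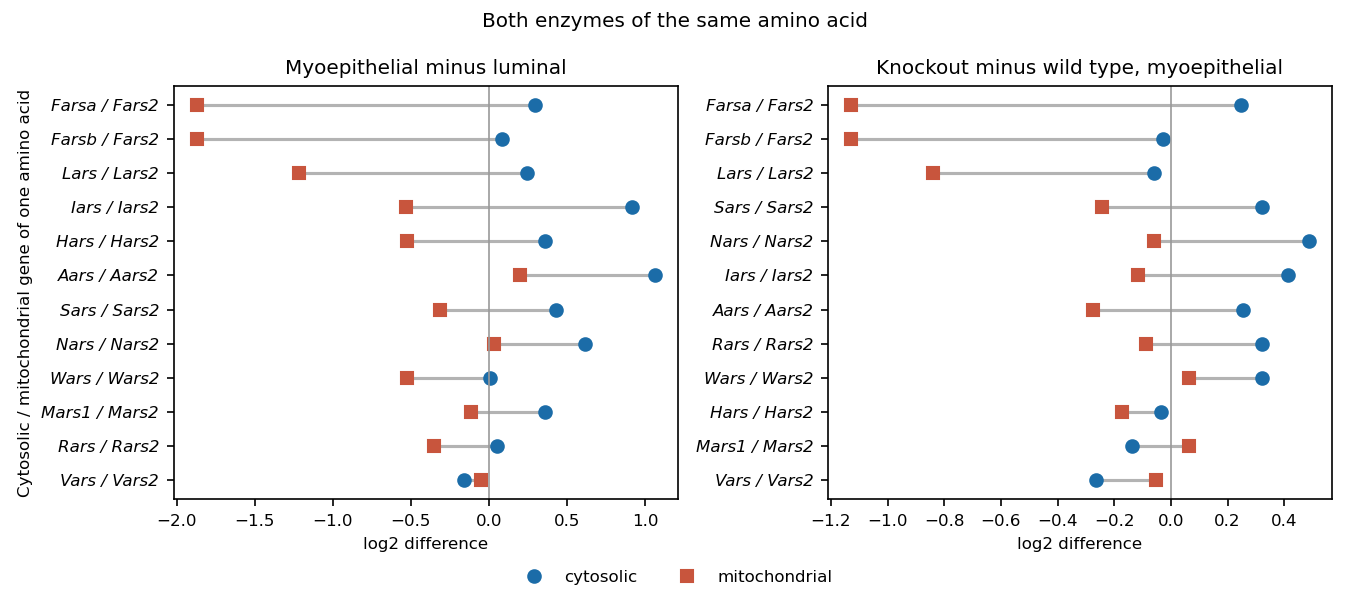
Log2 difference of the cytosolic (blue circle) and mitochondrial (red square) gene of each of the 12 pairs, joined by a line. The left panel shows myoepithelial minus luminal cells and the right panel knockout minus wild type in myoepithelial cells, each sorted by the gap. The circle lies to the right of the square in 11 of 12 pairs on the left and in 10 of 12 on the right.

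The 5 synthetase promoters that hold the core of the element bound by ATF4 with C/EBP proteins all belong to cytosolic genes. The element was searched as TGATGNAA on both strands in the window from 250 bases before to 50 after the start of each gene (RefSeq, GRCm38.p6). It lay in 5 of 13 cytosolic promoters with an entry (38.5%: Aars, Gars, Iars, Tars and Yars), in 0 of 14 mitochondrial ones and in 4.5% of 27025 genes. Of these, Aars, Gars, Iars and Yars were all called higher in myoepithelial cells, where 23.5% of all genes were, and Tars was not analysed here. Eprs, Nars and Sars, also called higher, had no match or no promoter entry. Stretches of 30 bases of the gene's strand are shown because they are the sites in Gars, Iars and Yars, with the element in capitals (on the other strand it reads as TTNCATCA).
Gars, chr6:55037960-55037989 (plus strand): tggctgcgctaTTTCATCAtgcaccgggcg
Iars, chr13:49682126-49682155 (plus strand): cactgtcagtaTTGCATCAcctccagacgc
Yars, chr4:129189895-129189924 (plus strand): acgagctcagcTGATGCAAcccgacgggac
The element begins 30 bases before the start in Gars, 7 after it in Iars and 3 after it in Yars, the one of these 3 genes with it on its own strand. A match of letters describes these windows and says nothing of binding. The E-box CACGTG, the site of MYC and related factors, lay in 4 of 13 cytosolic promoters (30.8%: Aars, Farsb, Iars and Tars), in 1 of 14 mitochondrial ones (7.1%, Ears2) and in 8.1% of all genes.

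Other ATF4 targets differed in the same comparison. Of 28 measured genes listed as targets that are no synthetases, Atf4 itself among them, 19 were higher and 1 lower in myoepithelial cells, with a median of 0.84. The glycine transporter Slc6a9 (1.44 ± 0.09) and the amino acid transporter chain Slc3a2 (1.28 ± 0.14) rose. The cystine transporter Slc7a11 was called higher too, at 5.29 to 7.21 in myoepithelial cells, but its luminal arrays (4.41 to 4.71) all lay below the lower quartile of probe sets, so its difference has no exact size. Nupr1, a stress-induced chromatin protein, was the lower one (-2.67 ± 0.17). Of 21 genes of MYC and ribosome biogenesis 11 were higher and 0 lower, Myc itself by 1.33 ± 0.18. The reference mattered here too: against alveolar progenitors alone 0 of the 21 were called (limma, median -0.07) and 13 of the 28 ATF4 targets were higher, and against the Sca1-positive cells 17 and 20 were higher.

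Mitochondrial translation genes beyond the synthetases were mixed. Of 6 measured mitochondrial translation factors 3 were lower, Mtif2 (initiation) by 0.84, Tufm (elongation) by 0.41 and Gfm1 (elongation) by 0.34 log2 units, and 0 were higher. Trit1, which modifies both cytosolic and mitochondrial transfer RNAs, fell by 1.48 (SE 0.15), and 4 of 12 transfer RNA processing genes were lower and 1 higher. Qrsl1, the catalytic subunit of the glutamine amidotransferase, read 6.65 and 6.98 in wild-type and 6.80 and 6.56 in knockout myoepithelial cells. Its luminal arrays ran from 6.94 to 9.40, and the difference was -1.82 ± 0.13 (adjusted p = 1.85e-07). Mtfmt, which formylates the mitochondrial initiator transfer RNA, was higher by 0.89 ± 0.09. Among the complex scaffolds Aimp1 was lower by 0.40 ± 0.14 (adjusted p = 0.0395), and Aimp2 and Eef1e1 were not called.

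Markers of other cell types also moved with this comparison. The summed level of 6 endothelial markers was 9.50 to 10.52 in myoepithelial and 8.68 to 9.88 in luminal arrays, with 4 of the 6 called higher and 1 lower. The 3 measured adipocyte markers summed to 10.17 to 11.51 and 6.91 to 10.22, with 1 called higher. The 9 leukocyte markers summed to 9.32 to 9.90 and 8.88 to 9.25. The 4 pericyte markers summed to 8.82 to 9.30 and 9.34 to 10.15, lower in every myoepithelial array, though 3 of the 4 were called higher and 1 lower. Their part in the synthetase differences was not tested.

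The next question was how the luminal populations differ among themselves. Here several cytosolic synthetase RNAs were higher in alveolar progenitors than in non-clonogenic luminal cells. Of the 17 cytosolic genes 7 were lower and 0 higher in non-clonogenic cells, and of the 15 mitochondrial genes 1 was lower and 1 higher, against 12.6% of all genes called lower and 15.9% higher (28.5% in all). The median differences were -0.38, -0.12 and 0.03 over cytosolic, mitochondrial and all genes. All 9 called members had the same direction in the 4 mice, from which the calls themselves came. The cytosolic median was -0.54 in the wild types and -0.23 in the knockouts, with -0.09 in knockout mouse 2, and this difference was not tested. In the wild-type arrays alone 5 members were called, against 12.4% of all genes.

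Iars read 9.75 and 10.28 in wild-type and 9.68 and 10.12 in knockout non-clonogenic cells, and 11.25 and 11.11, then 10.75 and 10.85, in alveolar progenitors. The groups did not overlap, and Iars was lower by 1.03 ± 0.16 (adjusted p = 0.000315). Gars read 10.32 and 10.55, then 10.01 and 10.72, against 11.43 and 11.32, then 11.00 and 11.28, and differed by -0.86 ± 0.16 (adjusted p = 0.00115). Nars (-0.67 ± 0.13), Farsa, the catalytic subunit for phenylalanine (-0.64 ± 0.14), Hars (-0.58 ± 0.19), Eprs (-0.57 ± 0.11) and Lars (-0.53 ± 0.16) were also lower. Iars, Gars, Nars, Eprs and Lars did not overlap between the populations, and Farsa and Hars did. The Hars call was lost when any of the 4 mice was left out and with the parent pair as a block (adjusted p = 0.0549), and those of Lars, Eprs and Farsa were lost without knockout mouse 1 (adjusted p = 0.19, 0.0879 and 0.104). Lars and Eprs also lost theirs without knockout mouse 2, and Lars without wild-type mouse 2. Read through its probe set with the largest spread over group means, Farsa differed by -0.63 and was not called (adjusted p = 0.0688). Aars, which had the largest positive difference between myoepithelial and luminal cells, differed by -0.37 ± 0.14 and was not called.

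Lars2 went the other way. It was 1.34 ± 0.13 higher in non-clonogenic cells (adjusted p = 6.37e-06), a 2.53-fold difference, with no overlap. Nars2 was lower by 0.42 ± 0.14 (adjusted p = 0.0429), a call lost when any of the 4 mice was left out (adjusted p = 0.0746 to 0.293). Fars2 differed by 0.59 ± 0.22 and was not called. In 1 of 12 amino acid pairs, tryptophan, the cytosolic difference lay above the mitochondrial one.

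In the ductal progenitors the picture resembled that of non-clonogenic cells, with which they share the alveolar progenitors as reference. Against alveolar progenitors 5 cytosolic genes were lower and 0 higher, and Lars2 alone of the mitochondrial genes was higher, with 10.7% of all genes lower and 11.3% higher (22% in all). Vars2, next among the mitochondrial genes, differed by -0.20 ± 0.09 (adjusted p = 0.142). The called values were -0.84 ± 0.16 for Iars, -0.59 ± 0.16 for Gars, -0.55 ± 0.14 for Farsa, -0.48 ± 0.11 for Eprs, -0.46 ± 0.13 for Nars and 1.06 ± 0.13 for Lars2. The cytosolic median was -0.48 in the wild types and -0.12 in the knockouts, with -0.03 in knockout mouse 1, where 7 of 17 genes were higher in ductal progenitors. In the wild-type arrays alone 2 members were called, against 6.3% of all genes. Lars2 and Iars kept their calls when any mouse was left out. In the wild-type arrays alone the Lars2 difference was 0.75 and not called (limma, adjusted p = 0.101). Nars lost its call without any of the 4 mice, and Farsa without knockout mouse 1, knockout mouse 2 or wild-type mouse 1. Eprs lost its call without knockout mouse 1, knockout mouse 2 or wild-type mouse 2, and Gars without wild-type mouse 1 or 2. Farsa was also not called through its probe set with the largest spread over group means (-0.64, adjusted p = 0.0766). Between non-clonogenic cells and ductal progenitors 0 members were called, with 0 at an unadjusted p under 0.05 (limma), against 0.795% of all genes, 0.755% lower and 0.0409% higher. Lars2 came nearest, at 0.27 ± 0.13 (adjusted p = 0.778), and both its groups stood apart. Gars differed by -0.27 ± 0.16 and Nars by -0.21 ± 0.13.

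Companion genes followed the split of the luminal cells. Of 21 genes of MYC and ribosome biogenesis 16 were lower in non-clonogenic cells than in alveolar progenitors and 0 higher, Myc by 1.91 and Fbl, the nucleolar methyltransferase, by 1.07. Of 28 other ATF4 targets 8 were lower and 4 higher. Psat1, of serine synthesis, was lower (-1.95 ± 0.26), and Stc2, a secreted stress protein, was higher (3.40 ± 0.39). Qrsl1 was higher by 1.61 ± 0.16, as was Gatb by 1.63 ± 0.29, and Eef1e1 of the complex was lower by 0.78 ± 0.24 (adjusted p = 0.0299). The Gatb difference rested on the knockout mice, being 0.51 in the wild-type arrays alone (adjusted p = 0.61).

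**Figure D4:**
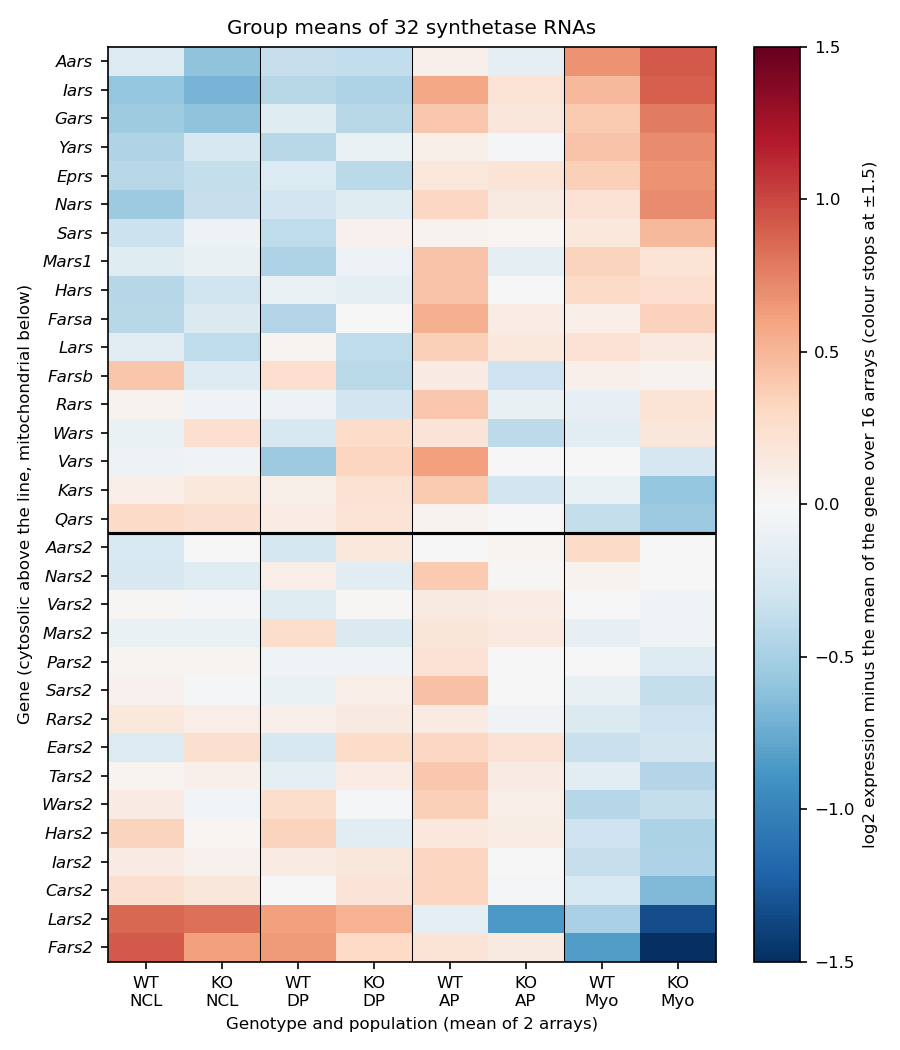
Mean log2 expression of 32 synthetases in the 8 groups of genotype (WT, KO) and population (non-clonogenic luminal NCL, ductal DP, alveolar AP, myoepithelial Myo), less the mean of each gene over 16 arrays, with red above and blue below it. Most genes of both compartments are red in the wild-type alveolar column. In both myoepithelial columns most cytosolic genes (top) are red and most mitochondrial genes (bottom) are blue.

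Over all 4 populations together, the level differed for 20 of the 32 members (limma F test), against 49.8% of all genes. Lars2 had the smallest adjusted p (4.37e-07), then Fars2 (1.84e-05) and Iars (3.4e-05). The mean of Aars was 8.53 ± 0.26 (SD, n = 4) in non-clonogenic cells, 8.57 ± 0.06 in ductal progenitors, 8.90 ± 0.16 in alveolar progenitors and 9.73 ± 0.30 in myoepithelial cells. For Iars the order was the same, with means of 9.96 ± 0.29, 10.15 ± 0.09, 10.99 ± 0.23 and 11.28 ± 0.35, and the last 2 did not differ beyond their spread. For Lars2 it ran downwards, from 9.70 ± 0.06 over 9.42 ± 0.07 and 8.36 ± 0.44 to 7.94 ± 0.53. The wide spread of Lars2 in alveolar progenitors and myoepithelial cells lay between genotypes. The 12 members not called were Mars1, Farsb, Rars, Wars, Vars and Kars of the cytosolic and Rars2, Nars2, Aars2, Vars2, Pars2 and Mars2 of the mitochondrial genes.

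The last question was what the loss of Cpeb2 did to the synthetase RNAs. Averaged over the 4 populations, 2 of 32 members were called, both lower, against 7.04% of all genes called lower and 3.18% higher (10.2% in all). Lars2 fell by 0.42 (SE 0.10, adjusted p = 0.0169) and Farsb, the other subunit of the cytosolic phenylalanine enzyme, by 0.43 (SE 0.10, adjusted p = 0.0232). Sars (0.25 ± 0.07, adjusted p = 0.052) and Fars2 (-0.46 ± 0.17, adjusted p = 0.102) came next. In single populations 0 members were called. The medians of the mean effect were -0.04 over cytosolic, -0.11 over mitochondrial and 0.02 over all genes.

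The Lars2 values of the genotypes lay farthest apart in alveolar progenitors and myoepithelial cells, without a call in either. Knockout and wild type were close in non-clonogenic cells (9.61 and 9.75 against 9.72 and 9.71) and in ductal progenitors. In alveolar progenitors both knockouts lay below both wild types, with a difference of -0.73 ± 0.18 (adjusted p = 0.121), and in myoepithelial cells too, with -0.84 ± 0.18 (adjusted p = 0.0534). The test of whether the Lars2 effect differed between populations gave an adjusted p of 0.18, so a difference between them was not shown. With the parent pair as a block the Lars2 difference in myoepithelial cells was called (adjusted p = 0.034), 1 member of 32 against 1.26% of all genes. The mean effect was not called without knockout mouse 1 (-0.35, adjusted p = 0.181), knockout mouse 2 (-0.50, adjusted p = 0.0894) or wild-type mouse 2 (-0.35, adjusted p = 0.077).

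Farsb read 9.99 and 9.98 in wild-type and 9.21 and 9.55 in knockout non-clonogenic cells, 10.04 and 9.61 against 8.93 and 9.40 in ductal progenitors, and 9.75 and 9.63 against 9.25 and 9.27 in alveolar progenitors. In these 3 populations both knockouts lay below both wild types. In myoepithelial cells it read 9.64 and 9.66 against 9.52 and 9.72, and the groups overlapped. The call rested on its brightest probe set, because the other 2 differed by -0.19 ± 0.12 and 0.03 ± 0.08 and the mean of all 3 was not called (-0.20, adjusted p = 0.167). It was also lost without knockout mouse 1, knockout mouse 2 or wild-type mouse 1. Farsa, its partner subunit, was not called in any knockout comparison.

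**Figure D5:**
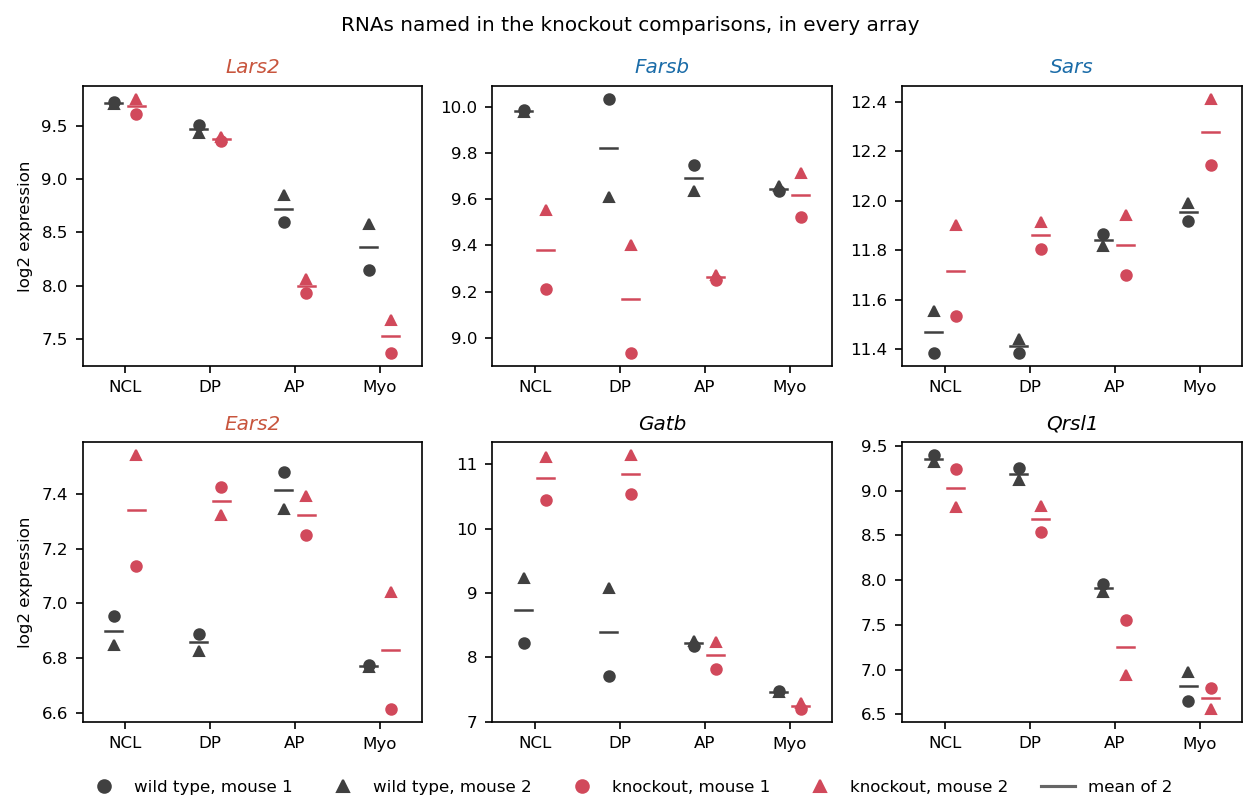
Log2 expression in every array of 4 synthetases and of the amidotransferase subunits Gatb and Qrsl1 (black titles) in non-clonogenic luminal cells (NCL), ductal progenitors (DP), alveolar progenitors (AP) and myoepithelial cells (Myo), with circles for mouse 1, triangles for mouse 2 and a line at the mean of 2. The genotypes lie farthest apart in AP and Myo for Lars2, in NCL, DP and AP for Farsb, and in NCL and DP for Gatb, where the knockouts read 10.45 to 11.14.

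In non-clonogenic luminal cells, where 2.06% of all genes were called (1.73% lower and 0.339% higher), 0 members were, and 2 had an unadjusted p under 0.05. These were Farsb (-0.60 ± 0.20, adjusted p = 0.145) and Ears2, at 6.95 and 6.85 in wild type and 7.14 and 7.54 in the knockout (0.44 ± 0.16, adjusted p = 0.2). Aars read 8.86 and 8.61 against 8.25 and 8.39, a difference of -0.41 ± 0.20 that was not called, and Aars2, the mitochondrial alanine enzyme, differed by 0.24 ± 0.14. The cytosolic genes went opposite ways in the 2 parent pairs, with a median of -0.15 between the mice numbered 1 and 0.26 between those numbered 2.

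In ductal progenitors 0 members were called, against 7.44% of all genes (4.35% lower and 3.09% higher), and 6 had an unadjusted p under 0.05. Farsb differed by -0.65 ± 0.20 (adjusted p = 0.0622) and Sars by 0.45 ± 0.14 (adjusted p = 0.0691). Sars read 11.39 and 11.44 in wild type and 11.81 and 11.91 in the knockout, with no overlap. Ears2 (0.51 ± 0.16), Aars2 (0.43 ± 0.14) and Vars (0.88 ± 0.29) were higher in both knockouts without a call, and Mars2 (-0.47 ± 0.18) read 4.66 in wild-type mouse 1 and 3.74 to 3.86 in the others. Vars read 7.27 in that same mouse, whose array was the one high in fibroblast markers, and 8.19, 8.44 and 8.76 in the others. Without that array, which leaves 1 wild-type ductal array, the Farsb difference was -0.44. With the parent pair as a block 2 members were called higher, against 9.39% of all genes, Sars among them (adjusted p = 0.0383).

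Alveolar progenitors showed the most one-sided values. The knockout mean was lower in 30 of 32 members, 16 of 17 cytosolic and 14 of 15 mitochondrial, while 50.5% of all genes had a higher knockout mean. No member was called by limma (0 of 32, with 6 at an unadjusted p under 0.05), against 0.62% of all genes (0.351% lower and 0.269% higher). The medians were -0.38 over cytosolic, -0.22 over mitochondrial and 0.0015 over all genes. Within the parent pairs 31 members were lower in the first and 26 in the second, 25 of them in both.

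Behind Lars2 stood Rars, the arginine enzyme of the complex, at 9.43 and 9.62 in wild type and 9.02 and 8.99 in the knockout (-0.52 ± 0.17, adjusted p = 0.272). Sars2 read 7.97 and 8.11 against 7.61 and 7.55 (-0.45 ± 0.16, adjusted p = 0.343), and Kars 9.74 and 9.34 against 8.65 and 9.08 (-0.67 ± 0.27, adjusted p = 0.432). Both knockouts lay below both wild types for each of these, which were named for their small p. The share of all genes so separated was not computed. Of the genes of MYC and ribosome biogenesis 18 of 21 had a lower knockout mean here, with a median of -0.29 and 0 called. With array weights Lars2 was called (adjusted p = 0.0247).

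In myoepithelial cells the median knockout differences of the compartments had opposite signs, without a called member. The cytosolic median was 0.25, the mitochondrial one -0.17 and that over all genes -0.03. The knockout mean was higher in 10 of 17 cytosolic genes and lower in 12 of 15 mitochondrial genes. Most of all genes also had a lower knockout mean here, as their median was below 0. In 10 of 12 amino acid pairs the cytosolic difference lay above the mitochondrial one, with Fars2 counted for both Farsa and Farsb. Less the mean of each gene over all arrays, the median mitochondrial level overlapped between genotypes. It was -0.25 and -0.08 in wild type and -0.48 and -0.15 in the knockout. The median cytosolic level did not overlap, at 0.09 and 0.21 against 0.31 and 0.41. No member was called by limma (0 of 32, with 5 at an unadjusted p under 0.05), against 1.01% of all genes (0.567% lower and 0.445% higher). Fars2 differed by -1.13 ± 0.32 (adjusted p = 0.125), but its wild-type mice read 5.97 and 7.36 and the knockouts 5.56 and 5.51, so the size rested on wild-type mouse 2. Without wild-type mouse 1 the difference was -1.83 and called, and without wild-type mouse 2 it was -0.43 and not called.

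Nars read 11.66 and 11.45 in wild type and 11.92 and 12.17 in the knockout (0.49 ± 0.18, adjusted p = 0.252), and Sars 11.92 and 11.99 against 12.14 and 12.41 (0.32 ± 0.14). Cars2 differed by -0.44 ± 0.20. Of 28 other ATF4 targets 25 had a higher knockout mean in myoepithelial cells and 1, Slc7a11, was called (1.32 ± 0.26, adjusted p = 0.034), with a median of 0.37. Endothelial markers summed to 9.50 and 9.52 in wild-type and to 9.86 and 10.52 in knockout myoepithelial arrays, and leukocyte markers to 9.87 and 9.90 against 9.32 and 9.37. The part of these, and of the lower cell cycle genes, in the synthetase values was not tested.

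Across populations 0 of 32 members had a knockout effect that differed (limma F test, 4 at an unadjusted p under 0.05), against 0.667% of all genes. Lars2 led with an adjusted p of 0.18, followed by Vars (0.211), Rars (0.231) and Aars2 (0.232). With the parent pair as a block 5 members were called in the mean effect, 1 higher and 4 lower, in place of 2, while 20.1% of all genes were called in place of 10.2%. The higher one was Sars (adjusted p = 0.00852), and Fars2 was among the lower (adjusted p = 0.0338).

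The largest knockout difference near the synthetases was that of Gatb, a subunit of the amidotransferase of mitochondrial glutamine charging. It read 8.22 and 9.24 in wild-type and 10.45 and 11.12 in knockout non-clonogenic cells, and rose by 2.05 ± 0.42 (adjusted p = 0.0315). In ductal progenitors it read 7.71 and 9.08 against 10.54 and 11.14, and rose by 2.45 ± 0.42 (adjusted p = 0.0105). In alveolar progenitors it read 8.18 and 8.26 against 7.82 and 8.24, and in myoepithelial cells 7.47 and 7.46 against 7.19 and 7.29, and neither was called. The test of a difference between populations gave an adjusted p of 0.0588. Single mice mattered: without either knockout mouse neither population's call remained (adjusted p = 0.162 to 0.52), and in non-clonogenic cells it was also lost when wild-type mouse 1 was left out. Leaving out only the wild-type ductal array with high fibroblast markers gave a ductal value of 1.78 (adjusted p = 0.112). The 5 hormone-sensing luminal markers moved in the same arrays, with summed levels of 13.40 to 13.43 in wild-type and 13.82 to 13.90 in knockout non-clonogenic cells (0 called by limma, 3 at an unadjusted p under 0.05). In ductal progenitors they summed to 13.22 to 13.26 and 13.90 to 13.91 (2 called higher), and Pgr, the progesterone receptor, read 9.84 and 11.11 against 11.61 and 11.89. Their part in the Gatb difference was not tested.

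Its partners did not follow. Qrsl1 was lower in the mean effect (-0.41 ± 0.12, adjusted p = 0.0489), at the edge of the threshold. The call was lost without knockout mouse 2 (-0.28, adjusted p = 0.223), wild-type mouse 1 (adjusted p = 0.161) or wild-type mouse 2 (adjusted p = 0.153), and with array weights, quantile normalization or the probe set of largest spread (adjusted p = 0.0695, 0.0679 and 0.0502). With the mean of all its probe sets the difference was -0.12 (adjusted p = 0.34). Gatc was not called. The synthetase-like genes Tarsl2 (-0.85 ± 0.15, adjusted p = 0.00434), a cytosolic threonine enzyme, and Aarsd1 (-0.61 ± 0.13, adjusted p = 0.0114), an editing protein for mischarged alanine transfer RNA, fell in the mean effect. So did the mitochondrial elongation factors Tufm (-0.34 ± 0.08) and Gfm1 (-0.37 ± 0.10).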

How the data were processed

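The deposited values are log2 expression per probe set on an Affymetrix mouse array. The submitters' processing notes name RMA and limma without saying how each was used or giving a genome build. Amplified cDNA from sorted cells was labelled with biotin. The array annotation named 1 gene for 28898 of 45141 probe sets, and 551 with several genes were not used. All 16 arrays entered 1 limma fit (version 3.58.1, R 4.3.3) with 8 group means, the mouse as random block (statmod 1.5.0, correlation 0.0383) and a variance trend. There were 8 residual and 3.90 prior degrees of freedom, and Benjamini-Hochberg adjustment ran over 17097 genes. Differences are log2 with the standard error of the fit, the first named group or the knockout minus the other. The test was run on simulated data. Same-group arrays came from separate mice. Labels give a pair of parents shared by same-numbered mice of both genotypes. The deviations of these mice from their group means correlated at -0.0432 to 0.0737, and the fit with the parent pair as a block is given where it changed a call. In each comparison the called members are named, up to 6 each way with a value per array, and where a compartment has fewer than 2 called, its 2 members with the smallest p. Of other genes, up to 4 called ones per list with the smallest p are named, beside a fixed set of charging cofactors. The members, gene lists and motifs were chosen with earlier results of these data known. With 2 arrays per group their number limits the precision, and the lower quartile of 5.08 to 5.18 is taken as the dim end. The share of all genes whose groups did not overlap was not computed, so a lack of overlap is given as a description. Promoter sequences are from RefSeq, and 27 of 36 genes had an entry. The promoter sequence of Aars is not reported here.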

Additional observations from a re-analysis of the deposited data

How the results depend on the processing

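The results were recomputed under 34 settings in all, and some settings apply to part of the comparisons only. Of 47 called gene differences 22 lost the call when some mouse was left out, 16 when some array was and 10 under another alternative. In the wild-type arrays alone 22 lost it, but the knockout differences among the 47 could not be recomputed there. None of the 70 gene differences followed reversed. In the 8 wild-type arrays alone the members called were 8 for myoepithelial against luminal cells, 5 between non-clonogenic cells and alveolar progenitors and 2 between ductal and alveolar progenitors, with fewer samples in each and 27%, 12.4% and 6.3% of all genes called. With alveolar progenitors as the luminal reference, chosen after seeing the data, the cytosolic less mitochondrial median was 0.57 in place of 0.76. With the parent pair as a replicate block the knockout calls were 2 in ductal progenitors, 1 in myoepithelial cells and 5 in the mean effect, and no other count of calls moved by over 1.5 times. Without the variance trend they were 2 in ductal progenitors and 1 in myoepithelial cells, with 1256 and 202 of all 17097 genes called. With array weights 1 member was called in alveolar progenitors, with 389 of all genes. Quantile normalization gave 1 in myoepithelial cells, with 220 of all genes. With the mean of all probe sets 1 was called in myoepithelial cells and 1 in the mean effect, with 209 and 1836 of all genes. The cause of these shifts was not tested.

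Leaving out 1 array or 1 mouse, the members called ranged from 0 to 3 in ductal progenitors, 0 to 2 in myoepithelial cells and 0 to 4 in the mean effect of the knockout, and from 0 to 2 for an effect that differs between populations. Between populations they ranged from 14 to 22 for myoepithelial against luminal cells, 0 to 1 for non-clonogenic cells against ductal progenitors, 3 to 9 between ductal and alveolar progenitors, 4 to 12 between non-clonogenic cells and alveolar progenitors and 10 to 23 in the F test of levels. The number of all genes called moved under these settings too, and some groups were left with 1 array. A range of counts by itself thus says little of the synthetases. The cytosolic less mitochondrial median of the knockout in non-clonogenic cells ranged from -0.21 to 0.28 over mice left out and up to 0.29 over arrays. In ductal progenitors it ranged from -0.18 to 0.13 over mice and from -0.17 to 0.12 over arrays, so neither has a settled sign. It ranged from 0.59 to 0.82 for myoepithelial against luminal cells and from 0.29 to 0.44 for the knockout in myoepithelial cells. Mars2 lies at the dim end, where a change may not be seen.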
